A study of Mus musculus with 576 samples.

Results

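The 10 integrin subunits described here were taken by their gene symbols from the count tables of single cells of the mouse embryonic pancreas, out of 36658 gene identifiers in each table. They comprise 5 beta subunits (Itgb1, Itgb4, Itgb5, Itgb6 and Itgb8) and 5 alpha subunits (Itga4, Itga6, Itga8, Itga9 and Itgav) and all 10 were found in all 3 tables. Another 16 integrin genes were kept as a comparison list. Integrins are cell surface receptors made of an alpha and a beta chain that reach the cell surface only as a pair and bind proteins of the extracellular matrix or counter-receptors on other cells. The alpha chain largely sets which ligand is bound, and the beta chain links the receptor to the cytoskeleton. In the developing pancreas, epithelial cells rest on a laminin-rich basement membrane, while mesenchymal cells are embedded in an interstitial matrix with fibronectin, tenascin and nephronectin.

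Single cells of the E12.5 dorsal pancreas were sorted for GFP into 96-well plates and sequenced with the Smart-seq2 protocol, which covers whole transcripts. The cells came from 3 mouse lines on a C57BL/6J background, with embryos of mixed sex: Nkx2.5-Cre;mTmG, Nkx3.2-Cre;mTmG and Prox1-GFP. In the first 2 lines Nkx2.5 or Nkx3.2, both genes of the splanchnic mesenchyme, drives a Cre recombinase. The Cre switches a membrane reporter from Tomato to GFP in cells that expressed the driver and in their descendants. Prox1-GFP carries a transgene in which Prox1 sequences drive GFP, and Prox1 is active mainly in pancreatic epithelium. The paper also reports GFP in mesenchymal cells of this line, of its cluster M-III on the side of the duodenum. Mesenchyme of the Prox1 line was thus selected by GFP and need not stand for mesenchyme in general. Every line was represented by 2 plates of 96 cells, the labels name no animals, and each line therefore counted as 1 sample, so no test between lines or classes was possible and the spread between plates is given in its place.

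Of 576 cells 549 passed the filter, and the median depth was 1056674 counts per cell for Nkx2.5, 896115 for Nkx3.2 and 808006 for Prox1. Cells were placed in 4 classes by clustering without the integrin genes: 18 endocrine and 88 other epithelial cells, all from the Prox1 line, 28 mesothelial cells (5 from the Nkx2.5 and 23 from the Nkx3.2 line) and 415 mesenchymal cells, 79 of them from the Prox1 line and equal numbers from the other lines. The 9 epithelial markers summed to 3912 CPM in endocrine and 5320 CPM in other epithelial cells, against 450.9 CPM in mesothelium and 27.98 CPM in mesenchyme. The 7 mesothelial markers summed to 2135 CPM in mesothelium and to 88.4 CPM or less elsewhere. The 9 mesenchymal markers summed to 4408 CPM in mesenchyme but also to 2661 CPM in mesothelium, where Pdgfra was at 0, and to 24.7 CPM in other epithelial cells. In endocrine cells 6 of the 9 were detected and Col1a2 alone was at 128.8 CPM, in 72.2% of the cells, and the 6 neural markers summed to 127.4 CPM, against 22.9 CPM or less elsewhere. Of 5 endothelial markers Cdh5 was at 0 in every class, and the summed list lay between 33 and 53.6 CPM. Most of each sum was Pecam1, at 32.6 to 46.3 CPM and in 99.76 to 100% of the cells of every class. The 5 immune markers summed to 6.65 to 21.6 CPM, highest in mesenchyme. The 5 mural markers summed to 520.9 CPM there against 14.02 CPM or less elsewhere. Rgs5 alone held 411.5 CPM of that mesenchymal sum and was in 86.3% of mesenchymal cells, so the sum does not measure a share of mural cells. Acta2, Tagln, Cspg4 and Myh11 were each in 22.65% of mesenchymal cells or fewer. The part of immune or mural cells in the mesenchymal values was not tested. The endocrine class was led by Gcg, the glucagon gene, and 13 of its 18 cells held Gcg. A cluster of 18 cells led by Neurog3, the gene that starts the endocrine programme, fell among the other epithelial cells. The library names of Prox1 cells form a separate series, and an effect of that series and of the line cannot be told apart. Of the mesenchymal class, 2 cells of Prox1 plate 8A stood apart: they held 12.5 and 207 CPM (counts scaled to a common library total) of Col1a1, Col1a2 and Col3a1 together, against at least 806 CPM in every other mesenchymal cell. The first of them held 679 CPM of Ptprc, a leukocyte gene, and the second 78800 CPM of Gcg. Results that rest on these 2 cells are given with and without them.

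In GENCODE M21 on GRCm38 all 10 are protein-coding genes, and the counts cover their exons. Itgb1 lies at chr8:128685654-128733200, Itgb4 at chr11:115974709-116008412, Itgb5 at chr16:33829665-33949338 and Itgb8 at chr12:119158022-119238802. Chromosome 2 holds Itgb6 (chr2:60598292-60722643), Itga4 (chr2:79255426-79333123), Itga6 (chr2:71745616-71858416), Itga8 (chr2:12106632-12301922) and Itgav (chr2:83724397-83806916), and Itga9 lies at chr9:118606690-118901003.

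Promoter sequence from RefSeq (GRCm38.p6) was available for 8 of the 10 members. Itgb1 and Itgb5 are shown because both were transcribed in several classes, and Itga8 and Itgb6 because each was nearly restricted to a class or highest there. The 250 bases upstream of the transcription start are given 5′ to 3′ on the strand of the gene, in lower case, with capitals for matches on either strand to the 4 motifs searched, namely GGGCGG (the GC box), TATAAA (the TATA box of many tissue-specific genes), CCAAT (a site bound by NF-Y) and CAGGTG (an E-box). The sequences lie at chr8:128685404-128685653 (+) for Itgb1, chr16:33829415-33829664 (+) for Itgb5, chr2:12301945-12302194 (-) for Itga8 and chr2:60722604-60722853 (-) for Itgb6.
Itgb1: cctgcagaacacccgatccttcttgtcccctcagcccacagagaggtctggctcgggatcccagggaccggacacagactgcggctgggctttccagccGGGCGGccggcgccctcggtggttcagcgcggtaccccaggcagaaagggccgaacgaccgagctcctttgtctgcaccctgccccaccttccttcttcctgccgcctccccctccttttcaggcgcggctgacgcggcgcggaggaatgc
Itgb5: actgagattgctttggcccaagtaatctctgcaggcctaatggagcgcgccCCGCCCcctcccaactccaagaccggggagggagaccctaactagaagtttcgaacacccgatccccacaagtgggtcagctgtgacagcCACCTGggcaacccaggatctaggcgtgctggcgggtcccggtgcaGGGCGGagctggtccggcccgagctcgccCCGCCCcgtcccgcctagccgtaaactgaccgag
Itga8: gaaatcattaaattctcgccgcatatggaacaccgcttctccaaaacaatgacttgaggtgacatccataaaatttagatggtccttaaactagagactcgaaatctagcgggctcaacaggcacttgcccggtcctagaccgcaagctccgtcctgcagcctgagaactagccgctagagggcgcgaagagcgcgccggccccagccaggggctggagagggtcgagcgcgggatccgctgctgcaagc
Itgb6: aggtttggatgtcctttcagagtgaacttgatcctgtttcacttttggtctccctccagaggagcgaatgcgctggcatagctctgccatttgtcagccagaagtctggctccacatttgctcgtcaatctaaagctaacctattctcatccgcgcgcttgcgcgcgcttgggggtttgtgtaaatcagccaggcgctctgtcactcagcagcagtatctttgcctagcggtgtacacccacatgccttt

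The window of Itgb1 held 1 match to GGGCGG and that of Itgb5 held 3, with 1 match to CAGGTG besides. No letters of the 4 motifs were found in the windows shown for Itga8 and Itgb6, which says only that these letters are absent from these bases. The table holds a second Itgb6 start, whose window (chr2:60673694-60673943, 38% GC) is not shown and held 1 match to CAGGTG. Among 32851 promoters of the table, 32.7% held GGGCGG, 12.4% TATAAA, 33.8% CCAAT and 17.2% CAGGTG over the same length, and no motif searched contains another. The GC content was 68% for Itgb1 and 65.2% for Itgb5, 56.4% for Itga8 and 52% for Itgb6, with a median of 52.4% over all promoters. The members not shown lay between 58.4% (Itga9) and 64.4% (Itgav), with Itga4 at 64% and Itgb8 at 62.4%. The windows of Itga9 (chr9:118711442-118711691) and Itgb8 (chr12:119238277-119238526) lie inside the genes as placed above, so they belong to starts within them.

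Itgb1, the beta subunit shared by most matrix receptors, was the most abundant member in every class, also per length of transcript. In CPM of summed counts it reached 229 and 254 in endocrine cells of plates 8A and 8B, and 359 and 317 in the other epithelial cells of the same plates. In mesenchymal cells it was at 356, 384 and 418 CPM in Nkx2.5, Nkx3.2 and Prox1 cells. The 20 mesothelial cells of plate 7B were at 341 CPM, inside the range of the other epithelial and mesenchymal plates. Endocrine cells were thus the lowest of the classes with at least 5 cells in a plate, by less than 2-fold. In sums over cells, fewer cells with a transcript and less of it per cell cannot be told apart, so the share of cells is given beside the level. Itgb1 was detected, meaning at least 1 estimated count, in 17 of 18 endocrine, 87 of 88 other epithelial, 28 of 28 mesothelial and 384 of 415 mesenchymal cells. Of the 31 mesenchymal cells without it, 25 came from the Nkx2.5 line. Those 25 cells had a median of 4574 genes detected, against 5852 in the Nkx2.5 cells with Itgb1, at similar counts (1026925 and 1056673), and the part of RNA content or quality in this was not tested.

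**Figure D1:**
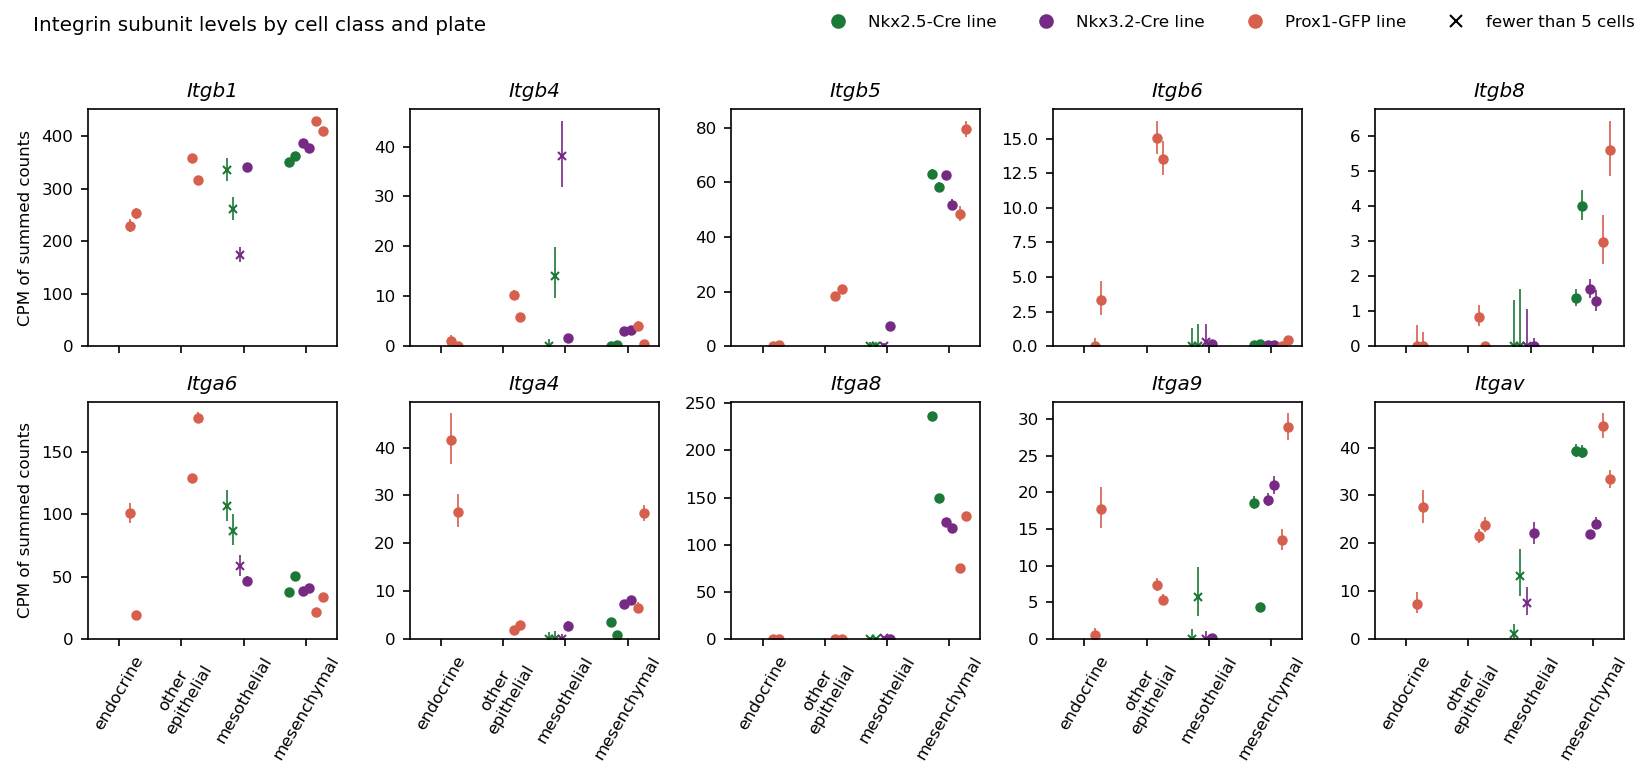
Level of each integrin subunit as CPM of the summed counts (y axis, linear from 0) in each cell class (x axis), with a point for each plate, coloured by line, and exact 95% Poisson intervals that cover counting error only. Crosses mark plates with fewer than 5 cells of the class. Itga8 stood at 75.3 to 236 CPM in mesenchyme and at or near 0 elsewhere, Itga6 was highest in other epithelial cells, and Itga4 was highest in endocrine cells and in mesenchyme of plate 8B.

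Itga6, which pairs with Itgb1 or Itgb4 to form laminin receptors, was highest in the other epithelial cells. It was at 128.9 and 177.4 CPM in other epithelial cells of plates 8A and 8B and was detected in 88 of 88 of these cells. In mesenchyme it was at 43.6, 39.4 and 28.7 CPM in Nkx2.5, Nkx3.2 and Prox1 cells, with plates from 21.3 to 50.2 CPM that did not overlap the epithelial ones. Endocrine cells split between the plates, at 100.7 CPM in 8A and 18.7 CPM in 8B, and single cells held 63.3% of the 8A and 56.3% of the 8B counts. Itga6 was detected in 11 of 18 endocrine cells (61.1%, exact binomial 95% interval 35.8 to 82.7%). The median cell held 123.9 CPM among other epithelial cells, 31.7 among mesothelial, 28.6 among mesenchymal and 11.95 among endocrine cells. Of the Itga6 values above 0, 90.3% were not whole, as estimated counts need not be, and an antisense gene (Gm13739) overlaps it in a protocol that keeps no strand.

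Itgb4, the partner that ties Itga6 to keratin filaments in hemidesmosomes, was at 10.2 CPM or less in every plate with at least 5 cells of a class. It was at 10.2 and 5.77 CPM in the other epithelial cells of plates 8A and 8B, in 22 of 88 cells. In mesenchyme it lay between 0.0171 and 4.10 CPM over the 6 plates, and in endocrine cells 7 counts were found in all. A single cell held 76.7% of the mesenchymal counts of 8A, the highest of these plates, which was at 0.984 CPM without it. The highest plate value of a class, 38.1 CPM in mesothelial cells of plate 7A, came from 1 of 3 cells, and the 20 mesothelial cells of plate 7B held 1.66 CPM. Within the other epithelial cells Itgb4 reached 40.3 CPM in a cluster of 8 cells led by Zfp189 and Nusap1, at 56.99 and 26.6 CPM in its 2 plates, of which single cells held 64.2% and 100% of the counts, and 0.0672 CPM in a cluster of 17 cells led by Gm28710 and the acinar gene Ctrb1.

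Itgb6, the beta subunit of an epithelial receptor for fibronectin, tenascin and latent TGF-beta, was highest in the other epithelial class. It stood at 15.1 and 13.6 CPM there in plates 8A and 8B, in 21 of 88 cells. In endocrine cells it was not detected in plate 8A (3 counts would be 0.501 CPM) and was at 3.31 CPM in 8B, where 93.3% of the counts came from a single cell. All 6 mesenchymal plates were at or below 0.431 CPM. The median other epithelial cell held none, so the class level rested on these 21 cells, with a maximum of 175.9 CPM. The Neurog3-led cluster held it at 29.5 and 29.7 CPM in its 2 plates (23.3 and 15.6 CPM without the cell of most counts), and the cluster led by Gm28710 and Ctrb1 at 1.08 and 0.374 CPM. Clusters of 8 and 4 other epithelial cells held 28.5 and 32.6 CPM over both plates, of which single cells held 59.25 and 100% of the counts.

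Itga8, the partner of Itgb1 in the receptor for nephronectin, was almost restricted to mesenchyme. The mesenchyme of the Nkx2.5 line held 194 CPM, that of the Nkx3.2 line 121.5 CPM and that of the Prox1 line 107.6 CPM, with plates from 75.3 to 236 CPM. No count was found in the 18 endocrine cells, 6 counts in a single one of the 88 other epithelial cells, and 1 count in the 28 mesothelial cells. A count of 0 in the endocrine class allows up to 0.200 CPM (3 counts over the class, the same floor), against 107.6 CPM in mesenchyme of the same line. It was detected in 270 of 415 mesenchymal cells (65.1%, 60.3 to 69.6%), and among all of them the median was 69.4 CPM and the maximum 3586 CPM. In the mesenchymal cluster led by Stab1, Kazald1 and Robo2 it was at 426.5 CPM in the Nkx2.5 line against 163.2 CPM in the Nkx3.2 line. In the cluster led by the smooth muscle genes Acta2 and Tagln it was at 88.8 CPM in the Nkx3.2 line, the only line with more than 5 cells there.

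Itgb5, a partner of Itgav in vitronectin binding, was higher in mesenchyme than in any other class. Mesenchyme held 60.9, 58.4 and 66.6 CPM in Nkx2.5, Nkx3.2 and Prox1 cells, the other epithelial cells 18.4 and 20.8 CPM in plates 8A and 8B, and endocrine cells 0 and 0.553 CPM. In the mesothelial class all 117.3 estimated counts came from 1 of 28 cells. Detection in mesenchyme was uneven between plates, from 31.4% of cells in 8A to 65.2% in 7A, while the plate levels ran from 48.4 to 79.7 CPM. Without the 2 collagen-poor cells the 8A plate held 42.8 CPM in place of 48.4 CPM.

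**Figure D2:**
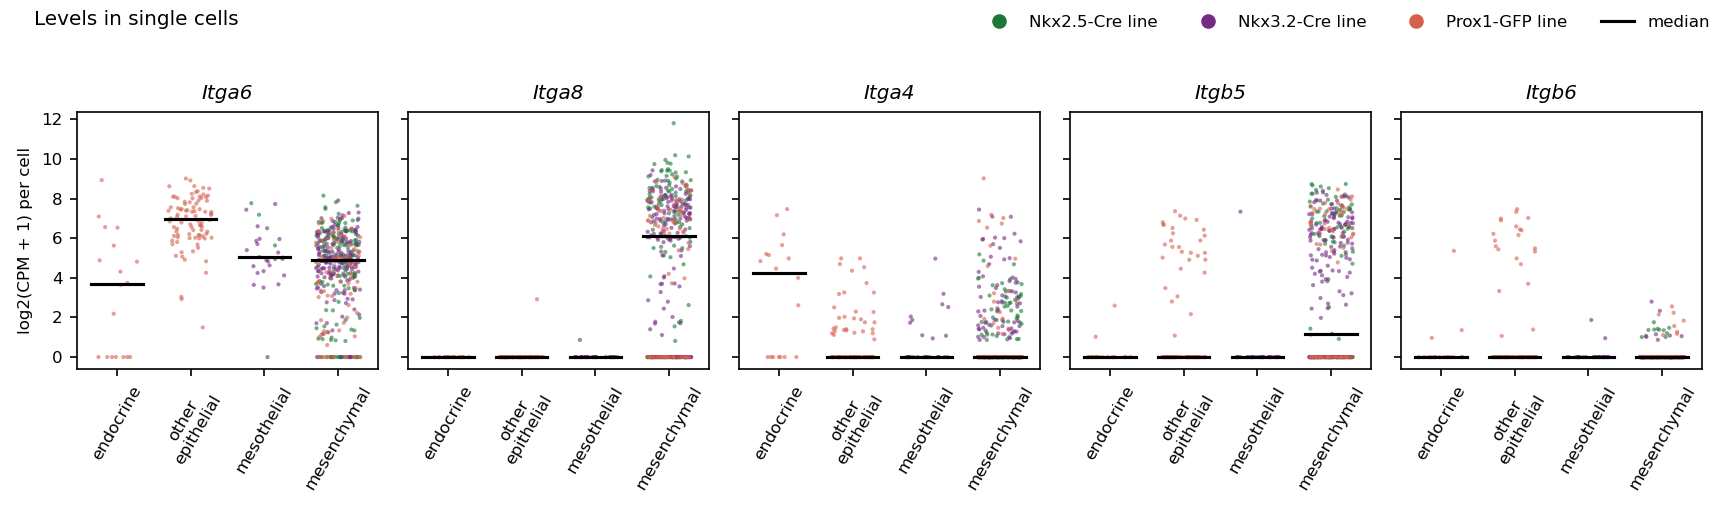
Level in each single cell as log2(CPM + 1) (y axis) for Itga6, Itga8, Itga4, Itgb5 and Itgb6 by cell class (x axis), with cells coloured by line and a bar at the median. All 88 other epithelial cells held Itga6, 270 of 415 mesenchymal cells but only 2 of all other cells held Itga8, and Itgb6 was at 0 in most cells of every class.

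Itga4, whose pair with Itgb1 binds fibronectin and Vcam1, was higher in endocrine than in other epithelial cells. It was at 41.7 and 26.6 CPM in endocrine cells of plates 8A and 8B and at 1.85 and 2.90 CPM in the other epithelial cells of these plates. A single cell held 48.2% of the endocrine counts in 8A and 61.3% in 8B, and without it the plates were at 24.4 and 11.65 CPM. The median endocrine cell held 25.9 CPM in 8A and 2.56 CPM in 8B, and the median other epithelial cell held none in either plate. It was detected in 11 of 18 endocrine cells, in 9 of them after each cell was thinned to 100000 counts, and in 31 of 88 other epithelial cells, in 12 after thinning. Of the 13 endocrine cells with Gcg, 9 held Itga4, 8 Itga6 and 7 Itgav, and of the 5 without Gcg, 2 held Itga4, 3 Itga6 and 1 Itgav. Single cells held 90.04% of the Itga4 and 71.3% of the Itga6 counts of those 5, so no levels are compared. In mesenchyme it was at 2.16, 7.57 and 18.04 CPM in Nkx2.5, Nkx3.2 and Prox1 cells, and 55.2% of the counts of plate 8B came from a single cell of 518 CPM. The mesenchyme of plate 8A fell from 6.52 to 1.99 CPM without the 2 collagen-poor cells, which held 144.3 and 48.3 CPM. Of its values above 0, 66.1% were not whole, and the antisense gene Cerkl overlaps it.

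Itga9, which pairs with Itgb1 and binds tenascin, osteopontin and Vcam1, was in few cells. Mesenchyme held 11.7, 19.8 and 22.5 CPM in Nkx2.5, Nkx3.2 and Prox1 cells from 92 of 415 cells, and the plates 6A and 6B of the Nkx2.5 line differed, at 18.6 and 4.29 CPM. Endocrine cells were at 0.501 CPM in plate 8A and 17.7 CPM in 8B, and other epithelial cells at 7.35 and 5.34 CPM. Single cells carried much of these values: without the cell of most counts, endocrine cells of 8B were at 9.46 CPM, other epithelial cells at 4.69 and 1.51 CPM and the mesenchyme of 6B at 2.06 CPM, and the endocrine counts of 8A were all in 1 cell. The mesothelial cells of the Nkx3.2 line held 2 counts in all.

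Itgav, which pairs with all the beta members except Itgb4, was found in every class. Other epithelial cells held 21.6 and 23.9 CPM, endocrine cells 7.35 CPM, 86.4% of it from a single cell, and 27.6 CPM, and mesothelial cells of plate 7B 22.1 CPM. In mesenchyme, Nkx2.5 cells were at 39.4 and 39.2 CPM, Nkx3.2 cells at 21.9 and 24.1 CPM and Prox1 cells at 44.5 and 33.4 CPM, so the plates of the Nkx3.2 line lay below those of both other lines. Itgb8, the partner of Itgav in TGF-beta activation, was held by the fewest cells: 16 of 415 mesenchymal cells held it, between 1.29 and 5.60 CPM by plate, with 1 of 88 other epithelial cells and no endocrine or mesothelial cell. All counts of plates 6A and 8A lay in 1 cell each, and a single cell held 83.8% of those of 8B, the highest plate (0.934 CPM without it).

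Levels were compared between members per kilobase of the longest coding transcript. In mesenchyme the order was Itgb1 (98.8 CPM per kb), Itga8 (26.1), Itgb5 (18.5), Itga6 (9.18), Itgav (4.62), Itga9 (2.36), Itga4 (0.695), Itgb8 (0.296), Itgb4 (0.259) and Itgb6 (0.0233). The plate ranges overlapped between Itga8 (13 to 40.6) and Itgb5 (14.8 to 24.3) and between all neighbours from Itga6 (4.95 to 11.7) down to Itgb6. Itgb1, with its lowest plate at 91.9, stood apart from Itga8, and Itgb5 stood apart from Itga6. In other epithelial cells Itgb1 (88.9) and Itga6 (35.2) were followed at a distance by Itgb5 (5.96), Itgav (3.21), Itgb6 (2.99) and Itgb4 (1.31), and the plate ranges of Itgav and Itgb6 overlapped. Itga6 was thus the leading alpha member in epithelium and Itga8 in mesenchyme. In endocrine cells Itgb1 (64) led, then Itga6 (11.9, plates 4.35 to 23.4), Itga4 (3.34, 2.73 to 4.27) and Itgav (2.77, 1.04 to 3.91), and the ranges of Itga4 and Itgav overlapped. Mesothelial cells had the order Itgb1 (81), Itga6 (13.7), Itgav (2.37) and Itgb5 (1.48).

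Co-detection of known partners in the same cell was counted for 9 pairs. At least 50% of cells of a class held both subunits for 2 pairs in endocrine cells, 2 in other epithelial cells, 2 in mesothelial cells and 3 in mesenchymal cells. Itga6 with Itgb1 was in this group in every class, at 10 of 18 endocrine cells (55.6%, 30.8 to 78.5%), 87 of 88 other epithelial cells (98.9%, 93.8 to 99.97%), 27 of 28 mesothelial cells (96.4%) and 347 of 415 mesenchymal cells (83.6%, 79.7 to 87.1%). The endocrine share was 50% and 60% in the 2 plates, against 100% and 97.4% for the other epithelial cells. Itga8 with Itgb1 was held by 251 of 415 mesenchymal cells (60.5%, 55.6 to 65.2%), and by 0 of 18 endocrine, 1 of 88 other epithelial and 1 of 28 mesothelial cells. The 0 of 18 allows a share of up to 18.5% at the 95% level.

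Itga4 with Itgb1 was the second endocrine pair, in 10 of 18 cells (55.6%) as against 30 of 88 other epithelial cells (34.1%). After thinning these became 9 of 18 (50%) and 11 of 88 (12.5%, 6.41 to 21.3%), and with at least 5 counts asked of both genes they were 50% and 7.95%. Most of the other epithelial cells counted at full depth thus held Itga4 at a few counts. With classes set per cell, Itga4 with Itgb1 was in fewer than 50% of endocrine cells. As a measure of background, Gcg, at 40760 CPM in endocrine cells, was detected in 18 of 88 other epithelial cells at full depth and in 1.14% of them after thinning, where Itga4 was in 13.6%, with median depths of 786756 and 839829 counts. Among endocrine cells 7 held Itga4 and Itga6 together, 4 Itga4 without Itga6, 4 Itga6 without Itga4 and 3 neither. No other epithelial cell held Itga4 without Itga6, and 1 did after thinning.

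Itgav with Itgb1 was found in 44.4% of endocrine, 56.8% of other epithelial, 60.7% of mesothelial and 50.8% of mesenchymal cells, and in 44.4, 43.2, 35.7 and 37.8% after thinning, so that no class stayed above 50%. Itgav with Itgb5 was a mesenchymal and epithelial combination, in 29.9% of mesenchymal cells (25.5 to 34.5%), 18 of 88 other epithelial cells (20.5%, 12.6 to 30.4%), 1 of 18 endocrine and 0 of 28 mesothelial cells. Itgav with Itgb6 was in 3 of 18 endocrine cells (16.7%, 3.58 to 41.4%), 13 of 88 other epithelial cells (14.8%, 8.11 to 23.9%), 1 of 28 mesothelial and 18 of 415 mesenchymal cells (4.34%). After thinning it was in 2 endocrine, 5 other epithelial, 0 mesothelial and 1 mesenchymal cell. The 3 endocrine cells were all of plate 8B. Itga6 with Itgb4 was in 1 of 18 endocrine, 22 of 88 other epithelial cells (25%, 16.4 to 35.4%), 5 of 28 mesothelial and 28 of 415 mesenchymal cells (6.75%). After thinning it was in 1 endocrine, 13 other epithelial, 5 mesothelial and 12 mesenchymal cells. Its share of other epithelial cells in plate 8B fell from 26.3 to 5.26%. Itga9 with Itgb1 was in 33.3% of endocrine, 13.6% of other epithelial, 7.14% of mesothelial and 21.4% of mesenchymal cells. After thinning it was in 22.2, 9.09, 0 and 17.8%. The endocrine share was 12.5% in plate 8A and 50% in 8B, against 16 and 10.5% of other epithelial cells there. Itgav with Itgb8 was in 9 mesenchymal cells and 1 other epithelial cell.

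**Figure D3:**
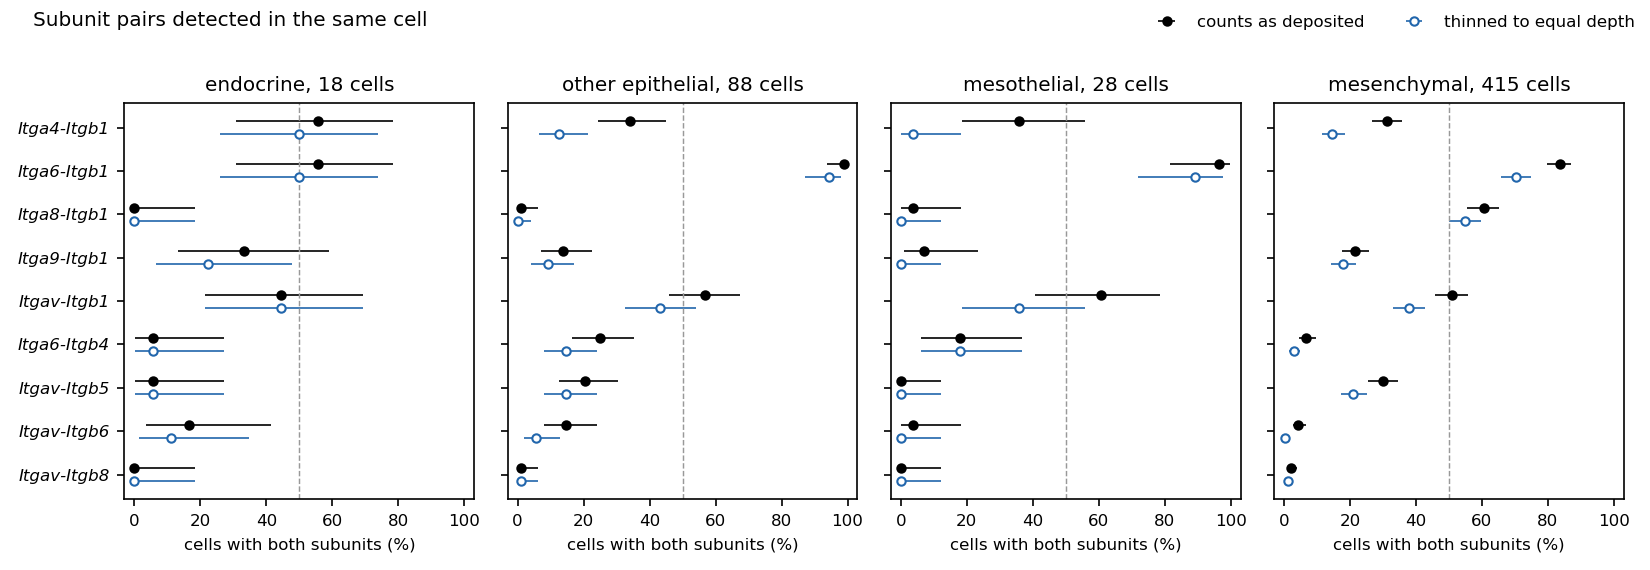
Share of cells in each class with at least 1 estimated count of both subunits of a pair (x axis, percent) for 9 pairs (y axis), with exact binomial 95% intervals for counting error. Filled points use the counts as deposited and open points cells thinned to 100000 counts, and the dashed line marks 50%. Itga6-Itgb1 was the leading pair outside endocrine cells, where Itga4-Itgb1 equalled it, and Itga8-Itgb1 passed 50% in mesenchyme.

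Because Itgb1 was in nearly every cell, the share of a pair with Itgb1 was close to that of its alpha subunit. Of the mesenchymal cells with Itga8, 92.96% held Itgb1, against 92.5% of all mesenchymal cells. Itgav and Itgb5 were co-detected in 29.9% of mesenchymal cells, where the product of their separate shares was 27.2%. By line these were 20.2 against 18.4% (Nkx2.5), 39.9 against 35.6% (Nkx3.2) and 29.1 against 29.8% (Prox1), so the Prox1 line lay below its product. Single cells mostly held several pairs, with a median of 2 pairs per cell in endocrine, other epithelial and mesothelial cells and 3 in mesenchymal cells. No pair was found in 29 mesenchymal cells, 22 of them of the Nkx2.5 line, whose mesenchyme had a median of 5745 genes detected against 7221 for Nkx3.2 and 6359 for Prox1. Of the mesenchymal cells with Itgav, 59.2% held at least 2 of its 4 beta partners among the members (41.25% in the Nkx2.5, 76.6% in the Nkx3.2 and 55.1% in the Prox1 line). So did 4 of 8 endocrine, 50.98% of the other epithelial and 5.88% of the mesothelial cells with Itgav. In mesenchyme the most frequent set of alpha members was Itga6 with Itga8 and Itgav (65 of 415 cells), and in other epithelium Itga6 with Itgav (30 of 88 cells).

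By line, the 3 mesenchymal pairs given first here were found most often in the Nkx3.2 line, as were Itga4 and Itga9 with Itgb1. Itga6 with Itgb1 was in 73.2% of Nkx2.5, 95.2% of Nkx3.2 and 81.01% of Prox1 mesenchymal cells, and in 60.7, 80.95 and 68.4% after thinning. Itga8 with Itgb1 was in 52.98, 69.6 and 56.96% of them, and Itgav with Itgb5 in 20.2, 39.9 and 29.1%. Itga4 with Itgb1 was in 26.2, 38.7 and 25.3%, and Itga9 with Itgb1 in 13.1, 29.8 and 21.5%, in the same order of lines. By plate, Itga8 with Itgb1 was in 60.9 and 44.4% of Nkx2.5 cells (6A and 6B), 70.65 and 68.4% of Nkx3.2 cells and 51.4 and 61.4% of Prox1 cells (8A and 8B), so the plates of the Nkx2.5 and Prox1 lines overlapped. Itgav with Itgb5 was in 19.5 and 20.99, 41.3 and 38.2, and 17.1 and 38.6% in the same order, and the Prox1 plates spanned those of the Nkx2.5 line and reached into the range of the Nkx3.2 plates. Itga6 with Itgb1 was in 74.7 and 71.6, 97.8 and 92.1, and 74.3 and 86.4%, so the Nkx3.2 plates lay above the others and those of the other lines overlapped. Itgav with Itgb1 was instead highest in the Prox1 line, at 41.7, 54.8 and 62.03%. For the first 3 pairs and for Itga9 with Itgb1 the order of the pooled lines was that of the median genes detected per cell, whose part in the shares was not tested. For Itga4 with Itgb1 and Itgav with Itgb1 the order was another.

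Calls between classes and lines asked for a difference of at least 2-fold in CPM + 1, in the same direction in both plates within a line or in all 4 pairs of plates between lines, among genes whose mean level in the 2 groups was at least 5 CPM. Such calls describe these plates and carry no test. Of the 10 members, 7 passed the level filter for endocrine against other epithelial cells of the Prox1 line, and 3 were called. Itga4 was higher in endocrine cells, by 3.33 on the log2 scale (plates 2.82 and 3.91, and 1.70 and 3.16 without the cell of most counts in each endocrine plate), where 11.6% of all 11644 genes passing the filter were called higher. Itgb5 (log2 ratio -3.95) and Itgb6 (-2.36) were lower, where 15.6% of all genes were. Itga6 was lower on average (-1.54), but the plates gave -3.18 (8B) and -0.35 (8A). Without the endocrine cell of most counts, plate 8A held 42.5 CPM of Itga6 in endocrine cells, against 128.9 CPM in other epithelial cells. The median log2 ratio of the 7 members that passed the filter was -0.47, against -0.11 over all genes passing the filter.

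Other epithelial against mesenchymal cells of the Prox1 line gave the most calls, 6 of 10 members, with 9 passing the filter. Higher in epithelium were Itgb6 (log2 ratio 3.62, 57.04-fold in CPM), Itga6 (2.36, 5.29-fold) and Itgb4 (1.60, 4.04-fold), where 9.97% of all genes were called higher. A single cell held 65.3% of the Itgb4 counts of this mesenchyme, which was at 2.01 CPM with it and 0.705 CPM without it. Lower in epithelium were Itga8 (0.0806 against 107.6 CPM), Itga4 (-2.51) and Itgb5 (-1.72), where 9.66% of all genes were called lower. Without the 2 collagen-poor cells, chosen for removal after the data were seen, 5 members were called and Itga4 was no longer among them. Itga4 was also not called without plate 8B, nor Itgb4 without plate 8A. Without cells in S or G2/M phase, 4 members were called, and Itgb4 and Itgb5 were not among them. The shares of all genes called in these smaller sets of cells are not given, so the lower counts are not read as particular to the members. Without the cell of most counts in each plate of the higher class, also chosen after the data were seen, neither Itgb4 (7.52 and 3.04 CPM left in other epithelium) nor Itga4 (3.38 and 12.1 CPM left in mesenchyme) was called. Itgb1 differed by -0.30 and Itgav by -0.72.

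Mesothelial against mesenchymal cells of the Nkx3.2 line gave 3 calls of 10 members, all lower in mesothelium, where 7.63% of all genes were called lower and 5.34% higher. These were Itga8 (1 count in mesothelium, 121.5 CPM in mesenchyme), Itga9 (2 counts, 19.8 CPM) and Itgb5 (6.12 CPM from a single cell, 58.4 CPM). Itga6 (0.30) and Itgav (-0.22) differed little on average. Plate 7A holds 3 mesothelial cells, so its values carry little weight. The 5 mesothelial cells of the Nkx2.5 line had no count of Itga8, Itgb5 or Itga4, and Itga6 stood at 106.8 and 86.95 CPM in plates 6A and 6B, mostly from 1 cell in each (74.7 and 82.6% of the counts).

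Between lines, no member was called in mesenchyme. For Nkx2.5 against Nkx3.2, 1.10% of all genes were called higher and 1.69% lower, and for Prox1 against Nkx3.2, 1.04% were called higher and 1.41% lower. Among members that passed the level filter, Itgav was higher in the Nkx2.5 line by 0.76 (0.68 to 0.82 over 4 pairs of plates) and in the Prox1 line by 0.72 (0.45 to 0.99), 2 comparisons that share the Nkx3.2 plates. Itga8 was higher in the Nkx2.5 than in the Nkx3.2 line by 0.67 (0.26 to 1.003). These ratios are of summed counts, and for Nkx2.5 against Nkx3.2 the shares of cells went the other way. Itga8 was detected in 61.9% of Nkx2.5 and 70.2% of Nkx3.2 cells, with medians of 67.25 and 71.2 CPM. Itgav was detected in 47.6 and 55.95% of them, with medians of 0 and 1.27 CPM. In the Prox1 line Itgav was detected in 62.03% of cells, with a median of 4.58 CPM. Itga4 was at 1.15 for Prox1 against Nkx3.2, with pairs of plates from -0.28 to 1.73, and at 1.03 (-1.61 to 1.73) without the 2 collagen-poor cells, so the plates of the Prox1 line went opposite ways. Under the filter, Itga4 differed by -1.44 for Nkx2.5 against Nkx3.2 (-2.39 to -0.88, 2.16 against 7.57 CPM) and Itgb4 by -1.86 (-2.04 to -1.69, 0.137 against 3.12 CPM). Single cells held 48.9 and 70.2% of the Itgb4 counts of plates 7A and 7B, which were at 1.59 and 0.960 CPM without them.

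**Figure D4:**
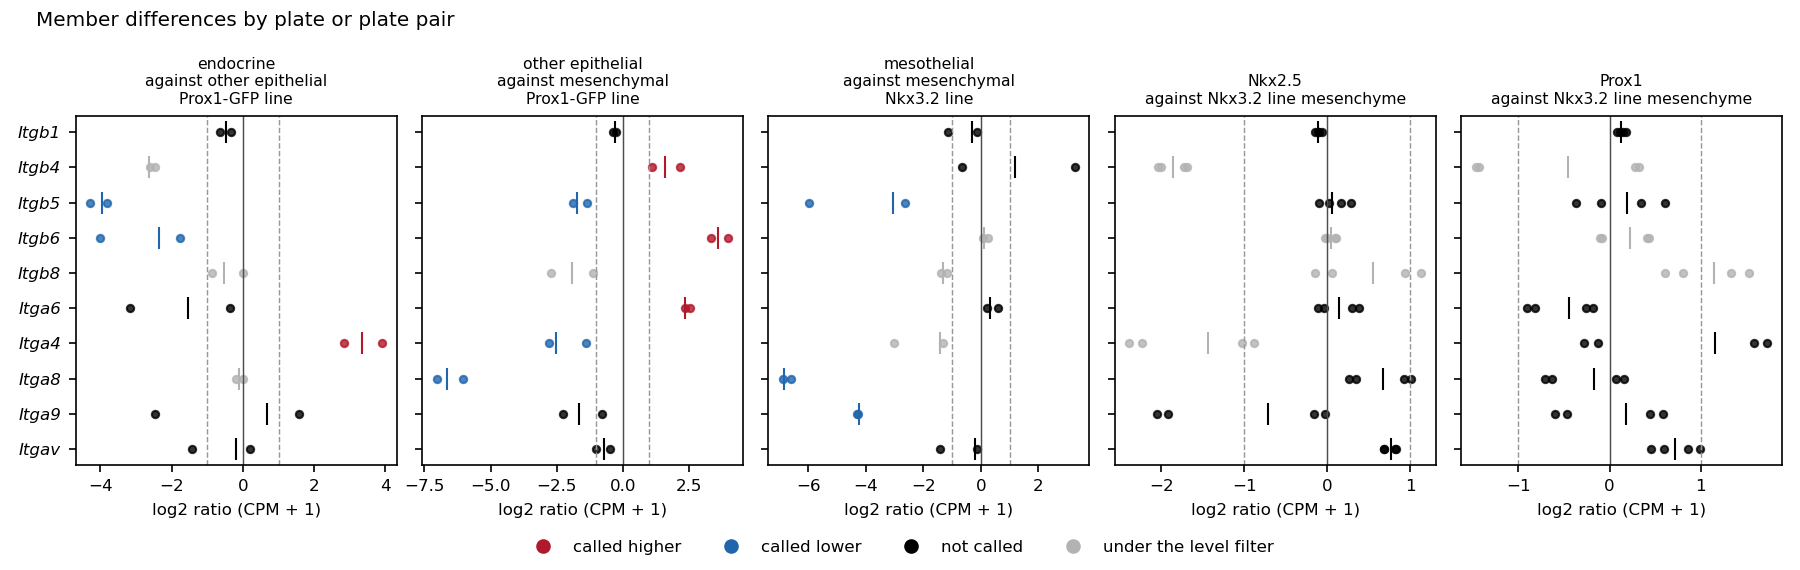
Log2 ratio of CPM + 1 (x axis) for each member (y axis) in the 5 comparisons, first group over second. Points are plates, or pairs of plates between lines, the tick is the ratio of the pooled groups, dashed lines mark 2-fold, and colours show members called higher or lower and members under the level filter. The 3 comparisons between classes held 12 calls and the 2 between lines none.

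Within the epithelium the members also varied by cluster. Itga6 was in every cell of all 7 other epithelial clusters, from 107.9 CPM in a cluster of 4 cells to 462 CPM in a cluster of 2. Itga9 was at 14.5 CPM in the cluster led by S-phase genes such as Rrm2 (16.3 and 12.9 CPM by plate, of which single cells held 66.3% and 100% of the counts) and at 0.0672 CPM in the Ctrb1 cluster. Within the mesenchyme Itga9 was at 1.70 CPM in the cluster led by Megf10 and Mst1r and at 39.2 CPM in the Acta2 cluster. A single cell held 58.1% of the counts of the Megf10 cluster, which was at 0.726 CPM without it. Cells in S or G2/M phase held 20.2 CPM of Itga9 against 3.67 CPM in G1 for Nkx2.5 and 35.1 against 8.14 CPM for Prox1, where a single cell held 78.2% of the G1 counts, but 19.8 against 19.7 CPM for Nkx3.2. Itgb5 was at 0.514-fold of the G1 level in S or G2/M cells of the Nkx2.5 line and at 2.29-fold in the Prox1 line, so its direction was not shared. Itgb1 and Itga6 stayed between 0.683-fold and 1.15-fold in all lines.

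Rank correlations between members over single mesenchymal cells of a line, given as a description of sparse counts from shared libraries, were weak. Of 45 pairs of members the highest Spearman coefficient was 0.26 (Itga4 with Itgav, 79 cells of the Prox1 line) and the lowest -0.21 (Itgav with Itgb8, same cells).

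The genes whose levels were most like those of each member were ranked by Pearson correlation of log2(CPM + 1) over 11 groups of a class and a plate, which share plates and libraries, among 10350 genes. Nearest to Itga8 were Adam19 (0.998), a membrane metalloproteinase, and Nfam1 (0.996). Nearest to Itgb6 were Habp2 (0.994), a secreted protease, and Wfdc15b (0.992). Nearest to Itgb5 were Tmem173 (0.985) and Fat4 (0.984), an atypical cadherin, and nearest to Itgb1 were Gm4631 (0.972) and Gng10 (0.971). For Itga6 they were Mgst1 (0.937) and Acadm (0.932), and for Itga4, whose pattern was matched least, Snx4 (0.894) and Pdap1 (0.891). For the members left, the nearest genes were Fahd1 (Itgb4, 0.963), Dgcr6 (Itgb8, 0.947), Aida (Itga9, 0.939) and Xpo6 (Itgav, 0.937). Each coefficient is the highest of 10350 over only 11 values, so its height alone carries no weight. Itgb4 and Itgb8 had means of 2.71 and 1.61 CPM over the groups. Single cells held 76.7% of the Itgb4 counts in mesenchyme of 8A and 100% of the Itgb8 counts in mesenchyme of 6A and of 8A.

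Of the 16 other integrin genes 2 reached 20 CPM in a class. Itga3, a laminin receptor subunit, was at 74.9 to 213 CPM in mesothelial cells over 4 plates, at 21.6 and 27.7 CPM in endocrine and 18.3 and 20.5 CPM in other epithelial cells, and at or below 5.25 CPM in mesenchyme. It was called higher in mesothelium than in mesenchyme (205 against 0.870 CPM) and in other epithelium than in mesenchyme. Itga5, the fibronectin receptor subunit, was at 44.1 to 104.6 CPM in mesenchymal plates, 31.6 and 25.5 CPM in other epithelial cells and 0.580 and 0 CPM in endocrine cells, and was called lower in endocrine than in other epithelial cells, lower there than in mesenchyme, and lower in mesothelium than in mesenchyme of the Nkx3.2 line (24.6 against 103.8 CPM). Itga1, a collagen receptor subunit chosen here after its values were seen, was called higher in endocrine cells (7.52 and 26.3 CPM) than in other epithelial cells (0.278 and 0.259 CPM), and lower in the Nkx2.5 and Prox1 than in the Nkx3.2 line mesenchyme. In plate 8A 97.8% of its endocrine counts came from 1 of 8 cells, and in mesenchyme of plate 7A 58.2% came from a cell of 791 CPM. None of these 3 calls of Itga1 was made without the cell of most counts in each plate of the higher group, which left 0.184 CPM in endocrine cells of 8A and 6.29 CPM in mesenchyme of 7A.

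The ligand list of 25 genes split between the classes. In other epithelial against mesenchymal cells 20 of the 25 passed the level filter, of which 5 were called higher and 11 lower, with a median log2 ratio of -1.44 against 0.00 over all genes, of which 9.97% were called higher and 9.66% lower. Epithelial ligands were Spp1 (4221 CPM, osteopontin, also a marker used to name classes), Vtn (401 CPM, vitronectin), Lamc1 (163.1 CPM), Lama5 (103.6 CPM) and Egfl6 (20.01 CPM). Mesenchymal ligands included Emilin1 (400.5 CPM, a ligand of Itga4 and Itga9 receptors), Tgfb2 (121.9 CPM), Npnt (108.8 CPM, nephronectin), Thbs1 (88.02 CPM), Lama1 (69.6 CPM), Tnc (68.4 CPM, tenascin-C), Svep1 (49.4 CPM), Postn (34.5 CPM), Vcam1 (30.02 CPM) and Tgfb3 (25.2 CPM). Nephronectin was also transcribed in classes nearly without its receptor subunit Itga8, at 44.9 CPM in other epithelial and 14.65 CPM in endocrine cells, and was higher in mesothelium than in mesenchyme of the Nkx3.2 line (292 against 108.9 CPM, called higher).

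Against other epithelial cells, endocrine cells had 8 ligands called lower and 1 higher of 13 of the 25 passing the filter, with a median log2 ratio of -1.69 against -0.11 over all genes, of which 15.6% were called lower and 11.6% higher. Those lower were Spp1, Vtn, Lamb1, Lamc1, Fn1, Mfge8, Npnt and Egfl6, the laminin chains Lamb1 and Lamc1 at 67.5 and 44.6 CPM against 215 and 163.1 CPM. Tgfb2 was the ligand called higher (47.8 against 0.108 CPM). Calls of ligands and of the adhesion proteins below were not repeated without the cell of most counts in each plate. In mesothelial against mesenchymal cells 5 ligands were called higher (Npnt, Lama5, Tgfb3, Egfl6 and Postn) and 5 lower (Emilin1, Svep1, Lama1, Tnc and Vcam1) of 18, with a median of 0.47 against 0.01 over all genes, of which 5.34% were called higher and 7.63% lower. Between lines 17 ligands passed the filter in each comparison and a single one was called, Edil3, higher in Prox1 than in Nkx3.2 mesenchyme (16.7 against 4.70 CPM), where 1.04% of all genes were called higher, and named after its values were seen.

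Of 22 proteins of integrin adhesions, 16 passed the filter in endocrine against other epithelial cells, with 1 called higher and 4 lower and a median of -0.45, against 11.6% called higher, 15.6% lower and a median of -0.11 over all genes. Dst, a plakin whose epithelial form links Itgb4 to keratin, was higher at 336 against 42.8 CPM although Itgb4 itself was nearly absent, and Fermt1, the epithelial kindlin, was at 105.6 CPM in other epithelial cells with no count in endocrine cells, with Tln2, Vcl and Src also called lower. Against mesenchyme, other epithelial cells had Fermt1 and Cd151, the tetraspanin partner of laminin receptors, called higher (22.8 against 7.78 CPM for Cd151) and 4 called lower, of 18 passing the filter, with a median of -0.59 against 0.00 over all genes (9.97% called higher and 9.66% lower). The 4 were Lims1, Bcar1, Col17a1 and Nrros, of which Col17a1 and Nrros stayed under 20 CPM and were named after their values were seen. In mesothelium Parvb (22.4 against 1.68 CPM) and Cd151 were called higher, of 17, with a median of -0.02 against 0.01 over all genes (5.34% called higher and 7.63% lower). Lrrc32, also named after its values were seen, was called lower in mesothelium (2.61 against 11.6 CPM) and in Prox1 against Nkx3.2 mesenchyme (1.43 against 11.6 CPM, 1 of 18 adhesion genes, with 1.41% of all genes called lower).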

How the data were processed

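Single cells of 3 lines were sorted into 6 plates. Per the labels and the methods, the authors trimmed reads (Trim Galore 0.6.5), quantified transcripts with kallisto on GRCm38 and summed them to genes with tximport, and the deposited values are estimated counts of reads without molecular identifiers or strand. Of the values above 0, 36.1% are not whole, and 0.605% of counts fell on identifiers without a symbol. Cells needed 1000 genes, 100000 counts and at most 30% mitochondrial counts, which left 549 of 576 cells with 224814 to 1512736 counts. No cell held the values of another cell.

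Clustering (Seurat 5.3.0 in R 4.3.3, 20 components, 10 for epithelial cells, resolution 1.9) left out the integrin, ligand and adhesion genes, and classes were named from markers. No doublet caller was run. An alternative left out cells holding markers of another class, but this was 1 mesenchymal cell. It could therefore change little, cannot see doublets within a class and does not replace a doublet caller.

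Counts were summed over cells and scaled to CPM (Python 3.11.15, numpy 2.4.6, pandas 2.3.3, scipy 1.17.1, matplotlib 3.10.9). Poisson and exact binomial (Clopper-Pearson) intervals are at 95% and cover counting error only. Cells were also thinned to 100000 counts. The named genes are the 10 members, genes of the other integrin list at 20 CPM in a class, ligands and adhesion proteins called and at 20 CPM, and for each member 2 genes of most similar level among those at a mean of 10 CPM. The members and lists were chosen with earlier results of these data known.

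For Itga4, Itga6, Itga9 and Itgav an antisense or overlapping gene cannot be told apart. Alternatives covered cell filters, class rule, size factors, mean of per-cell CPM, level filter, pseudocount, fold, cell cycle, detection limit and leaving out each plate.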

Additional observations from a re-analysis of the deposited data

Results flagged for a closer look

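For Itgb6 in mesothelial against mesenchymal cells, the 2 lines with mesothelial cells went opposite ways in every plate, with a mean log2 ratio of CPM + 1 of -0.137 in the Nkx2.5 line and 0.173 in the Nkx3.2 line. The difference was not tested. The 5 mesothelial cells of the Nkx2.5 line held no count of Itgb6 and the 23 of the Nkx3.2 line held 3 counts, at the floor of detection.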

How the results depend on the processing

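Most counts of members held under the alternatives, and no member called with both plates turned direction. Of members not called, Itgb4 in mesothelial against mesenchymal cells of the Nkx3.2 line was at 1.175 with both plates and at -0.66 without plate 7A, and Itga4 in Prox1 against Nkx3.2 mesenchyme was at 1.15 with both plates but at 6.52 CPM in plate 8A alone (1.99 CPM without the 2 collagen-poor cells) against 7.57 CPM in Nkx3.2 cells. Leaving out a plate gave 5 to 5 called members for endocrine against other epithelial cells (3 with both plates), adding Itga9 and Itga6 without plate 8A and Itgb4 and Itgav without plate 8B, where the rule asks for a single plate and 20.4% of all genes were called higher and 26.1 to 26.4% lower. For mesothelial against mesenchymal cells it gave 4 to 6, the highest without plate 7B, where 3 mesothelial cells are left and 16.5% of all genes were called higher and 27.8% lower. For Nkx2.5 against Nkx3.2 mesenchyme it gave 0 to 1 (Itga9 without plate 6A, Itga4 without 7A), and for Prox1 against Nkx3.2 mesenchyme 0 to 1 (Itga4 without 8A). Without the level filter 5 members were called in mesothelial against mesenchymal cells and 1 (Itgb4) in Nkx2.5 against Nkx3.2 mesenchyme, where a 1.5-fold limit also called 1 (Itgav) and the cells outside S and G2/M called 1 (Itga9). The shares of all genes called under these settings, and with a plate left out between lines, are not given. These counts are therefore not read as a result about the members. Of pairs held by 50% of cells, endocrine cells had 1 with classes set per cell (Itga6-Itgb1) and 2 to 4 when a plate was left out, the highest without 8A. Other epithelial cells had 1 with at least 5 counts, 1 after thinning, 1 with another seed and 1 without S or G2/M cells. Mesothelial cells had 1 with at least 5 counts, 1 after thinning and 1 with another seed. Mesenchymal cells, with 3, had 2 in each of these, without S or G2/M cells and without plate 7A, 7B or 8B. Removing the 2 collagen-poor cells, chosen after seeing the data, lost Itga4 from the 6 members called in other epithelial against mesenchymal cells, and removing the cell of most counts in each plate lost Itgb4 and Itga4 there and no other called member. Of single values, 23 log2 ratios, 63 of 387 shares and 7 of 80 levels per kb moved by more than their error or plate spread, and the others did not. No paired analysis was possible because the labels name no animal and each line is 1 sample. Thinning lowered detection from 31 to 12 of 88 other epithelial cells for Itga4 but only from 16 to 13 of 415 mesenchymal cells for Itgb8, so depth limits members held at few counts per cell. The cause of the other changes was not tested.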

Other observations

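Other members of the mesenchymal clusters that the comparisons did not cover varied by cluster. Itgb5 was at 87.7 CPM in the cluster of 75 cells with Igf1 among its leading genes. The 60 Nkx2.5 cells of that cluster were at 95.4 CPM, the 8 Prox1 cells at 76.6 CPM and the 7 Nkx3.2 cells at 13.6 CPM. Single cells held 54.5% of the Prox1 and 53.2% of the Nkx3.2 counts, and without them the values were 41.02 and 6.78 CPM. Itga4 was at 25.4 CPM in the Acta2 cluster, from 137.6 CPM in 5 Prox1 cells and 10.4 CPM in 36 Nkx3.2 cells. A single cell held 82.97% of the counts of the 5 Prox1 cells and another 53.5% of those of the Nkx3.2 cells, and without these the values were 30.06 and 4.97 CPM.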
